A study of Mus musculus with 23 samples.

Results

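The comparison described here is the effect of the birth dam on the livers of all pups at weaning. It sets the 11 libraries from pups born to dams with metabolic syndrome (MetS) against the 12 from pups born to control dams, so that all 23 libraries of the series take part. Pups of both kinds were nursed either by control or by MetS dams, and the effect is the mean difference over both nursing groups. Groups are written with the birth dam first and the foster dam second: Ct-Ct (n = 6), Ct-MetS (n = 6), MetS-Ct (n = 6) and MetS-MetS (n = 5). Below, "MetS-born" means MetS-Ct and MetS-MetS, and "Ct-born" means Ct-Ct and Ct-MetS.

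All animals were C57Bl/6J mice. Per the labels, dams ate a diet with 10% or 45% fat, starting at 3 weeks of age and lasting 7 or 17 weeks, and were mated with males on the control diet. Litters were set to 5 pups and exchanged between dams on the day of birth. Livers were taken on postnatal day 21, except in MetS-Ct_97, which is labelled day 22. For single animals, the sources used here do not give the litter, the length of the dam's diet or the hour of collection. The labels do not say that the pups of a group came from separate litters, so p-values measure the spread between these animals, which may include littermates.

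In a cross-fostered litter the birth dam supplies the egg and the womb, and the foster dam supplies the milk. The exchange thus separates exposure before birth from exposure through nursing. At weaning the mouse liver passes from milk, which is rich in fat, to solid food, and oxidation of fatty acids gives way to their synthesis. Liver genes of the circadian clock, of drug metabolism and of amino acid metabolism also mature in this period.

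Library totals were 27659328 ± 3080581 counts (SD, n = 12) in Ct-born and 25218461 ± 4585019 (SD, n = 11) in MetS-born pups, with a range of 16876460 to 34527932. Levels are given below in CPM, that is counts scaled to a common library total with TMM factors, and are compared within a gene only. The hepatocyte product Alb was between 84730 and 123700 CPM in every library. Xist was between 914 and 1466 CPM in every library, and no library had over 1 count of Ddx3y, a gene of the Y chromosome, so all pups had the transcripts of females. MetS-MetS_110 stood apart on the leading components of variation and held muscle transcripts: Ttn, the giant protein of the sarcomere, was at 114 CPM against at most 0.691 in the other 22 libraries, and Tnnt3, a troponin of fast muscle, at 104 against at most 0.857. MetS-Ct_70 and MetS-Ct_97 were the highest on the second component, where Ct-MetS_50 was level with MetS-Ct_97, and MetS-MetS_39 was the lowest on the third. Some results are also given without MetS-MetS_110, or without MetS-Ct_70 and MetS-Ct_97, and every library was left out singly in edgeR.

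The birth dam changed 1 of 14466 genes in edgeR's quasi-likelihood test at a Benjamini-Hochberg adjusted p under 0.05, which is 0.00691% of the genes tested. That gene, Plekha1, fell in MetS-born pups. At an unadjusted p under 0.05 the test took 2356 genes (16.3%), of which 1245 (8.61%) were higher and 1111 (7.68%) lower in MetS-born pups. After Plekha1 the smallest adjusted p was 0.126. The share of the variation between libraries that went with the birth dam, after the foster dam, was 8.74% (permutation p = 0.00939, one-sided, 100000 permutations of the birth dam within each foster dam). The foster dam accounted for 10.6% of the variation.

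The number of called genes depended on the test. DESeq2 called 140 genes (0.972% of those with an adjusted p), 99 higher (0.688%) and 41 lower (0.285%) in MetS-born pups. Limma-voom called 1, and limma-voom with a weight for the quality of each library called 218 (1.51%), 161 higher (1.11%) and 57 lower (0.394%). DESeq2 and the weighted test shared 111 genes, 80 higher and 31 lower, and all 111 had an unadjusted p under 0.05 in edgeR. Without MetS-MetS_110 DESeq2 called 83 genes and the weighted test 1. No other library was left out of either test, so whether the drop was particular to this library was not tested. Without MetS-Ct_70 and MetS-Ct_97 edgeR called none.

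**Figure D1:**
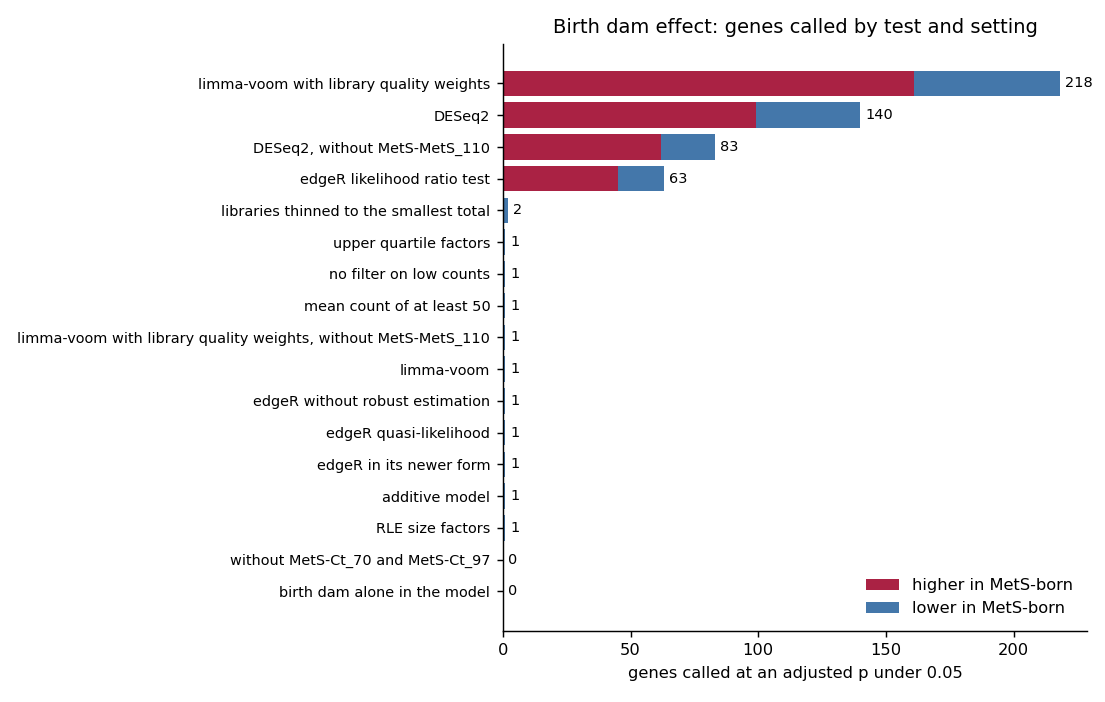
Number of genes called for the birth dam at an adjusted p under 0.05 (horizontal axis, genes) by each test and setting (vertical axis), split into genes higher (red) and lower (blue) in MetS-born pups. The count runs from 0 to 218, and the quasi-likelihood test called 1.

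The typical size of the birth dam effect was close to that of the foster dam. The median absolute log2 fold change was 0.11 for the birth dam and 0.12 for the foster dam, with a median standard error of 0.10 for each. Among 11909 genes with a mean count of 50 or more, 266 differed by 1.5-fold or more with the birth dam and 362 with the foster dam. For the foster dam the quasi-likelihood test called 611 genes (4.22%), DESeq2 1038 (7.21%), limma-voom 541 (3.74%) and its weighted form 1465 (10.1%), and 3060 genes (21.2%) were at an unadjusted p under 0.05, 10.6% in each direction. Whether the 2 effects differ in size was not tested.

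Plekha1 encodes an adaptor with a pleckstrin homology domain that binds a phosphoinositide made downstream of phosphoinositide 3-kinase, and it was counted here among insulin signalling genes. In Ct-Ct pups it ranged from 24.6 to 32.5 CPM with a median of 26.2, and in MetS-Ct pups from 17.4 to 22.5 with a median of 20.4. In Ct-MetS pups it ranged from 19.1 to 29.4 CPM with a median of 23.3, and the 5 MetS-MetS pups were at 15.5, 15.6, 15.8, 18.8 and 19.6. The birth groups did not overlap among pups nursed by control dams. Among those nursed by MetS dams, 1 MetS-MetS pup lay above the lowest Ct-MetS pup.

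Plekha1 fell by 0.48 ± 0.075 (SE) on the log2 scale, or 1.39-fold (edgeR adjusted p = 0.0217, 95% interval -0.63 to -0.33). All 11 MetS-born pups were below the mean log2 level of the Ct-born pups nursed alike. The difference was -0.46 in pups nursed by control dams and -0.50 in those nursed by MetS dams, and these differed by -0.04 (edgeR interaction, adjusted p = 0.976, 95% interval -0.35 to 0.27). Limma-voom (adjusted p = 0.0373) and its weighted form (0.0209) called the gene as well. With the foster dam Plekha1 differed by -0.23 (edgeR adjusted p = 0.0729), so its lowest group had both exposures and its highest had neither.

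The call of Plekha1 was kept when each of 15 of the 23 libraries was left out. It was lost, by edgeR's adjusted p, without Ct-Ct_129 (0.056), Ct-Ct_139 (0.0577), MetS-Ct_149 (0.0531), MetS-Ct_70 (0.058), MetS-Ct_97 (0.0515), MetS-MetS_109 (0.0871), MetS-MetS_154 (0.0528) or MetS-MetS_157 (0.0834). Its fold change stayed between -0.51 and -0.45 on the log2 scale over these fits.

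The genes whose residual levels, after group means were removed, were most like those of Plekha1 over 23 libraries were Tfr2 (Pearson r = -0.75), Acat3 (-0.74), Naprt (-0.73), Ninl (0.73) and Smox (0.73). Tfr2, a transferrin receptor of hepatocytes that takes part in iron sensing, did not itself pass the test for the birth dam (log2 fold change 0.06, edgeR adjusted p = 0.615). These correlations are a description over libraries that share depth and scaling.

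**Figure D2:**
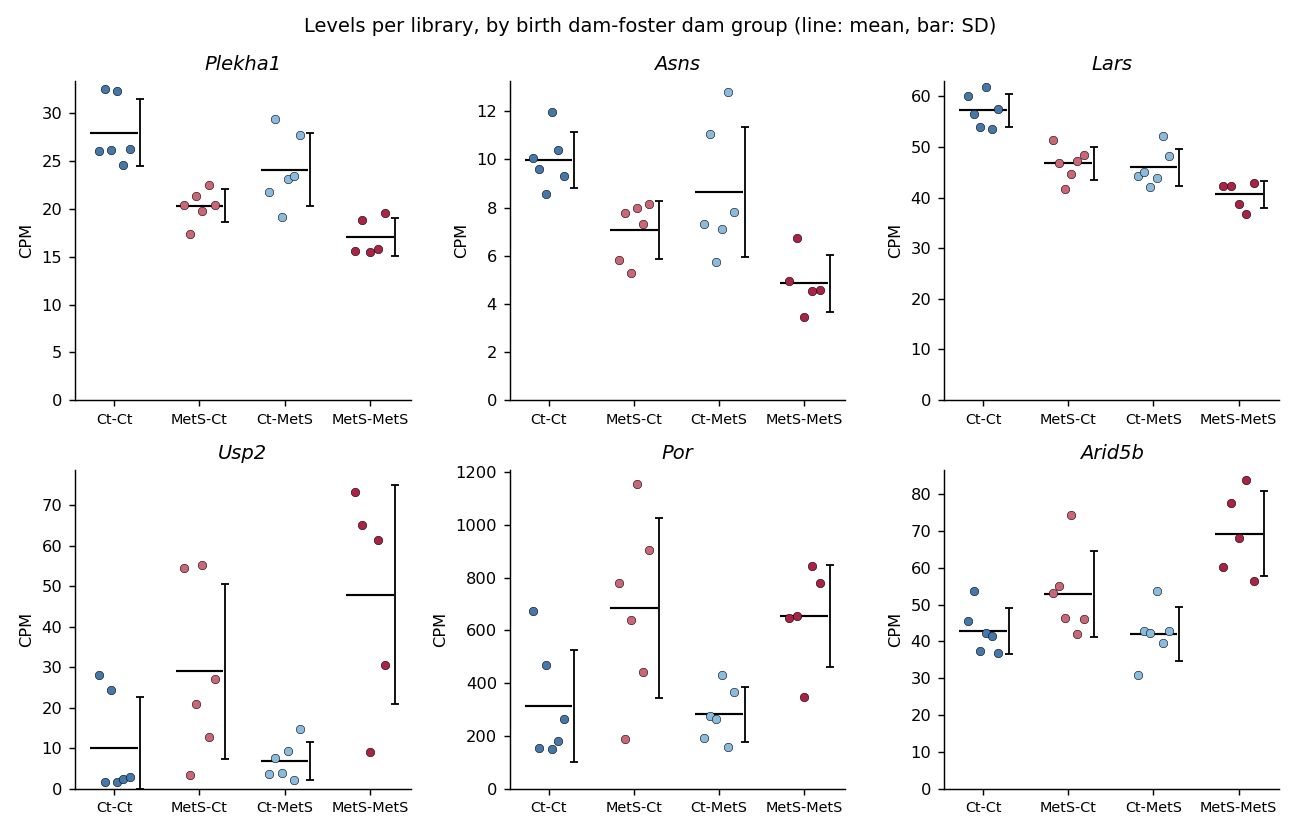
Levels of 6 genes in CPM (vertical axes, linear from 0) in each of the 23 libraries by group (horizontal axes, birth dam first and foster dam second). Each point is a library, the line is the group mean and the bar is 1 SD. Plekha1 was at 24.6 to 32.5 CPM in Ct-Ct and at 15.5 to 19.6 in MetS-MetS, whereas Usp2 and Por varied widely within each group.

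Among the 10 lower genes with the smallest p were Asns, which makes asparagine and is a classic target of the amino acid response, Psph, the last enzyme of serine synthesis, and Lars and Cars, which load leucine and cysteine onto their tRNAs, genes described together after their values were seen. None of these passed edgeR's adjusted threshold, and their adjusted p values lay between 0.126 and 0.156. All 4 were called lower by DESeq2 and by the weighted limma-voom test.

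Windows of 250 bases before the transcription start are shown for Asns and Gars, a further synthetase gene, because amino acid starvation acts on such promoters through a composite element, written here as TGATGNAA, that ATF4 and C/EBP proteins bind. The window of Plekha1 is shown because it was the only gene that edgeR called. Sequences are from RefSeq (GRCm38.p6), 5′ to 3′ on the strand of the gene, and capitals mark a match on either strand. Asns lies on the minus strand at chr6:7693210-7693459, Gars, the glycyl-tRNA synthetase, on the plus strand at chr6:55037751-55038000, and the first of the 2 listed starts of Plekha1 on the plus strand at chr7:130865474-130865723.
Asns: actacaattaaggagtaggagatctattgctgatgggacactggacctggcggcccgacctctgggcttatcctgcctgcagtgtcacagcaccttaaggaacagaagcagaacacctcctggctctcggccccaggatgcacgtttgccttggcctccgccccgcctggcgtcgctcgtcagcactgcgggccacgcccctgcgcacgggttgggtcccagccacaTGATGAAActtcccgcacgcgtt
Gars: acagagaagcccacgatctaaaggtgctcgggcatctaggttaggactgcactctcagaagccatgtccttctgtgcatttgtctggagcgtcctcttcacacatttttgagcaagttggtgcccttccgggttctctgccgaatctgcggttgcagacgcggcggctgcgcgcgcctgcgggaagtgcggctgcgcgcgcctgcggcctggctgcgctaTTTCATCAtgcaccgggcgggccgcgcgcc
Plekha1: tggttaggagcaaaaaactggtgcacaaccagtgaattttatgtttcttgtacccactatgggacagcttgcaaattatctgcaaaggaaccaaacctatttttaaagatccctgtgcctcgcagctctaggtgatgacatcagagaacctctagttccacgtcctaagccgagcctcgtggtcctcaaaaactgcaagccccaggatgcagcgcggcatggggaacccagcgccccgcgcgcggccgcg

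The match begins 23 bases before the start in Asns, on the strand of the gene, and 30 bases before it in Gars, on the opposite strand. The letters were found on either strand in 1304 of 32851 promoter windows (3.97%) of all genes in the table. They were found in 4 of the 8 windows of the lower amino acid response and synthetase genes, those of Asns, Gars, Nupr1 and Yars, with a window listed for 7 of these 11 genes. Neither Plekha1 window holds them. These genes were chosen by their values, and a match is a description of letters and not of binding.

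Asns ranged from 8.57 to 11.99 CPM in Ct-Ct, with a median of 9.83, and from 5.28 to 8.16 in MetS-Ct, with a median of 7.54. In Ct-MetS it ranged from 5.75 to 12.8 with a median of 7.58, and the MetS-MetS pups were at 3.47, 4.54, 4.57, 4.93 and 6.74. The birth groups were apart among pups nursed by control dams and overlapped among those nursed by MetS dams. The log2 fold change was -0.67 ± 0.13 (SE), with an edgeR adjusted p of 0.126, and all 11 MetS-born pups were below the mean log2 level of their nursing counterparts. Without MetS-MetS_110 the adjusted p was 0.0488, and over all libraries left out in turn it reached 0.287.

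Psph had a log2 fold change of -0.58 ± 0.13 (SE; edgeR adjusted p = 0.156), and the values in the 2 nursing groups, -0.57 and -0.59, were nearly equal. Psat1, the preceding enzyme of serine synthesis, was at -0.69 and Phgdh, the first, at -0.63, with edgeR adjusted p values of 0.225 and 0.312. Sfxn1, which carries serine into mitochondria, was in contrast higher in MetS-born pups, at 0.49 ± 0.11 (edgeR adjusted p = 0.156).

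Lars differed by -0.24 ± 0.048 (SE; edgeR adjusted p = 0.126), a small but even difference. It lay between 53.6 and 61.8 CPM in Ct-Ct and between 41.8 and 51.3 in MetS-Ct, with medians of 57.1 and 47.1. In Ct-MetS it ranged from 42.1 to 52.1 CPM (median 44.7), and the MetS-MetS pups were at 36.9, 38.8, 42.2, 42.3 and 42.9. The groups did not overlap among pups nursed by control dams and did among the others. Lars was also called for the foster dam (-0.26, edgeR adjusted p = 0.00468), so that Ct-Ct pups were highest and the other groups lower.

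Of 19 tested synthetases of the cytosol, a list drawn up after these values were seen, 7 were lower and none higher at an unadjusted p under 0.05, where 16.3% of all genes were at that level. Besides Lars, Cars (-0.48) and Gars (-0.21), they were Nars (-0.19), Sars (-0.16), Yars (-0.15) and Vars (-0.21), all enzymes that charge tRNA. DESeq2 and the weighted limma-voom test each called 3 of the 19 as lower, against 0.285% and 0.394% of all genes. Without MetS-MetS_110 DESeq2 called 2 of the 19 and the weighted test none. On the log2 scale the 19 synthetases had a median of -0.11, and all genes 0.00. Leaving out each library gave 6 to 9 lower members.

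The wider list of endoplasmic reticulum stress and ATF4 genes did not move one way. Of its 33 members 4 were lower (Asns, Psat1, Nupr1 and Ern1) and 2 higher (Herpud1 and Dnajc3) at an unadjusted p under 0.05. Together these were 18.2% of the list, close to the 16.3% of all genes, and the median was -0.05. Atf4 itself was at -0.11 and Ddit3, which encodes the stress factor CHOP, at -0.34, and neither was at the unadjusted level. Herpud1, which serves the degradation of proteins from the endoplasmic reticulum, was higher at 0.61 ± 0.15 (SE; edgeR adjusted p = 0.156), with overlap among pups nursed by control dams.

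**Figure D3:**
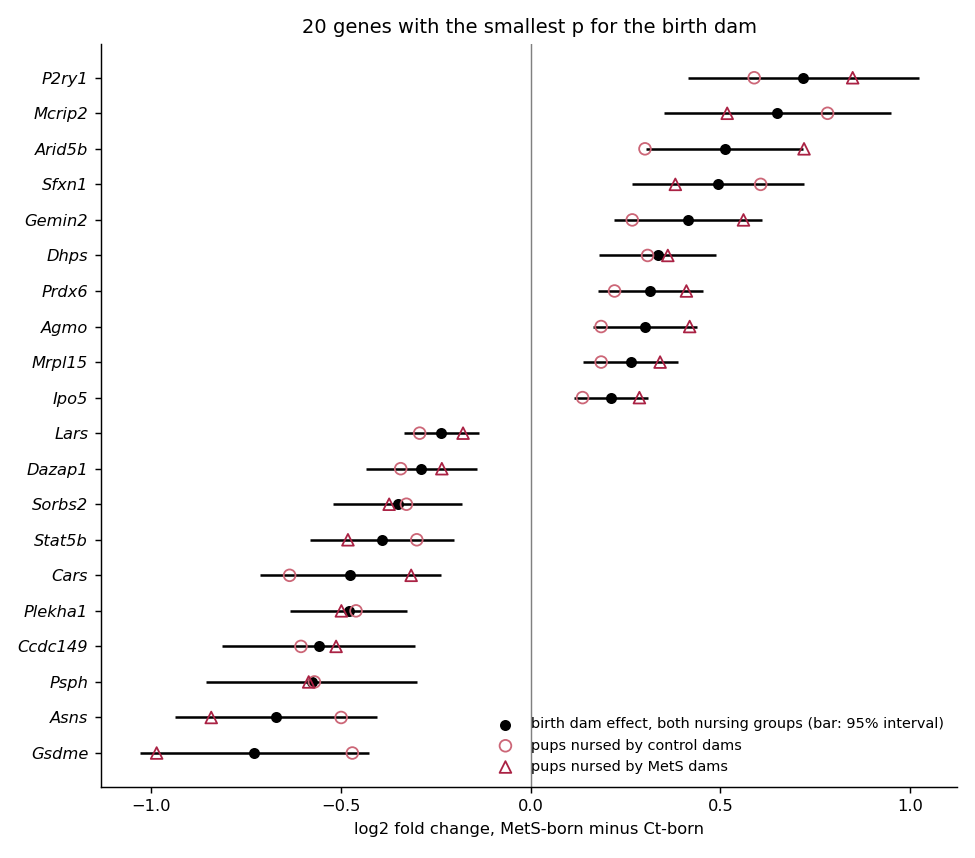
Log2 fold change of MetS-born over Ct-born pups (horizontal axis) for the 20 genes with the smallest p, one per line. Black points with bars are the effect over both nursing groups with its 95% interval, circles the value in pups nursed by control dams and triangles that in pups nursed by MetS dams. Plekha1 had -0.46 and -0.50 in the 2 nursing groups, while Arid5b had 0.30 and 0.72.

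On the higher side the smallest p values belonged to Arid5b, a DNA-binding transcriptional regulator, P2ry1, a receptor for ADP, Prdx6, a peroxiredoxin, and Agmo, which cleaves ether lipids. Arid5b had a log2 fold change of 0.51 ± 0.10 (SE; edgeR adjusted p = 0.126). Its median was 41.97 CPM in Ct-Ct and 42.5 in Ct-MetS, against 49.7 in MetS-Ct and 68.0 in MetS-MetS. The birth groups were apart only among pups nursed by MetS dams, where the effect was 0.72 against 0.30 in the others (edgeR interaction, adjusted p = 0.892).

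P2ry1 was at 3.64 to 6.78 CPM in Ct-Ct (median 4.50) and at 4.96 to 10.98 in MetS-Ct (median 6.84). It was at 4.72 to 9.57 CPM in Ct-MetS (median 6.21), and at 8.96, 8.99, 11.5, 13.6 and 15.4 in MetS-MetS. Values overlapped in both nursing groups, and all 11 MetS-born pups were above the mean log2 level of the Ct-born pups nursed alike. The log2 fold change was 0.72 ± 0.15 (SE; edgeR adjusted p = 0.126), and the gene was also called for the foster dam (0.56, adjusted p = 0.0339).

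The other higher genes were Sfxn1, Dhps, which begins the hypusine modification of a translation factor, Mcrip2, Ipo5, an importin, Gemin2, a member of the SMN complex, and Mrpl15, a protein of the mitochondrial ribosome. Their log2 fold changes ranged from 0.21 for Ipo5 to 0.65 for Mcrip2. The other lower genes were Gsdme, a pore-forming gasdermin (-0.73), Ccdc149 (-0.56), Stat5b, a transducer of growth hormone signals (-0.39), Sorbs2, an adaptor of the cytoskeleton (-0.35), and Dazap1, an RNA-binding protein (-0.29). In these genes 10 or 11 of the 11 MetS-born pups were on the same side of their nursing counterparts' mean log2 level. The genes were chosen for a small p in this comparison and these libraries, so such counts largely follow from the choice. They are not separate evidence, and the counts over all genes are not given here. The same holds for the counts given for Plekha1, Asns and P2ry1.

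The calls among these leading genes turned on single libraries. Leaving out Ct-Ct_33 gave 22 called genes, the most of any of the 23 fits, and leaving out any of the 8 libraries on which Plekha1 depended gave none.

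**Figure D4:**
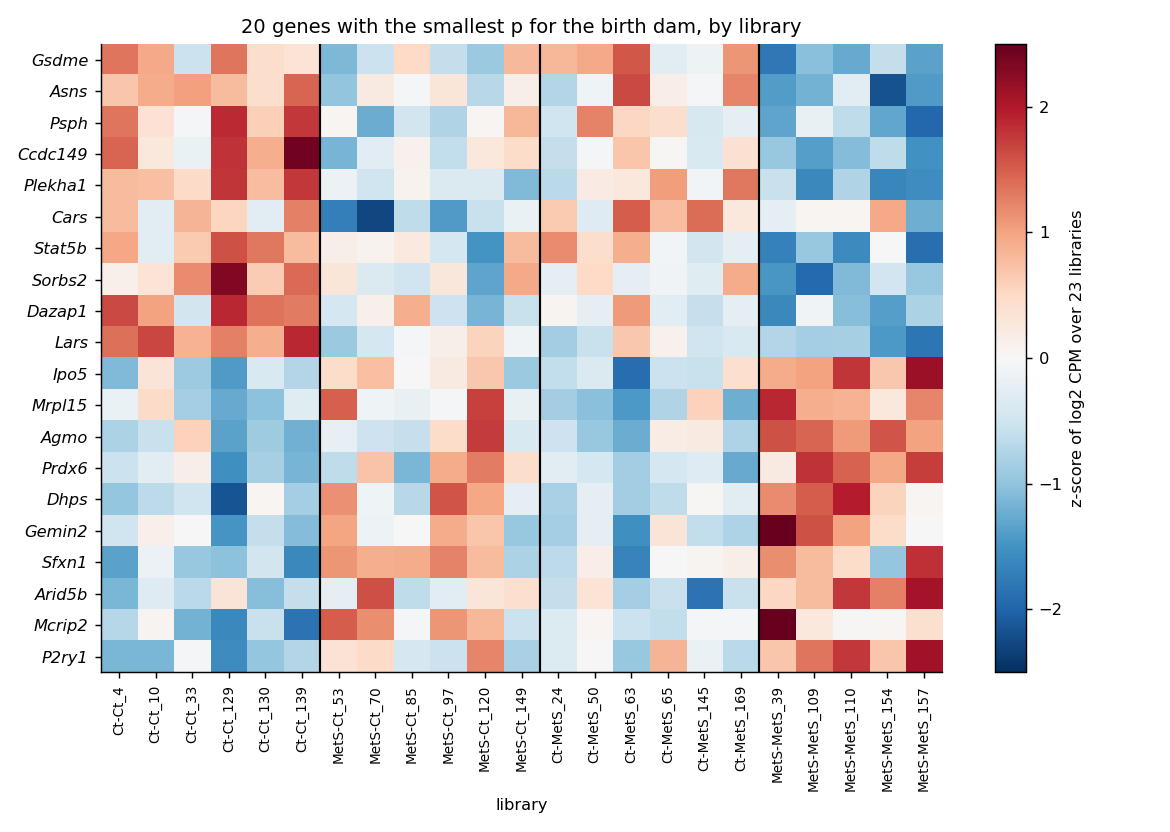
Standardised log2 CPM (colour, z-score over 23 libraries) of the 20 genes with the smallest p (rows) in every library (columns, with black lines between Ct-Ct, MetS-Ct, Ct-MetS and MetS-MetS). Most Ct-Ct libraries differ in colour from most MetS-MetS libraries, and single libraries go against their group, such as Mcrip2 in MetS-MetS_39 at 56.4 CPM where the next pup of its group was at 27.4.

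Clock genes had the highest median of the 16 gene lists described. Of 22 tested members, 10 were higher and none lower in MetS-born pups at an unadjusted p under 0.05, against 8.61% of all genes higher. The median log2 fold change of the list was 0.52 for the birth dam and 0.0054 for the foster dam. DESeq2 called 5 and the weighted limma-voom test 7 of the members as higher, against 0.688% and 1.11% of all genes. Without MetS-MetS_110 these counts were 2 and 0. Leaving out each library in turn gave 8 to 12 higher members and a median between 0.46 and 0.58.

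Among the members at that level were Usp2 (2.16), Ciart (1.81), Dbp (1.22), Per2 (1.06), Tef (0.83), Nampt (0.78), Wee1 (0.71), Hlf (0.55) and Cry2 (0.25). Dbp, Tef and Hlf are related transcription factors driven by the clock, and Per2 and Cry2 are its repressors. Arntl, the activator of opposite phase, was at -0.69 and its repressor Nr1d1 at -0.31 (edgeR adjusted p = 0.519 and 0.828).

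Usp2, a deubiquitinase whose transcript cycles in liver, had 1.57 to 28.04 CPM in Ct-Ct (median 2.61) and 3.38 to 55.3 in MetS-Ct (median 24.01). It had 2.16 to 14.8 CPM in Ct-MetS (median 5.70), and 9.03, 30.6, 61.4, 65.2 and 73.2 in MetS-MetS. The groups overlapped in both nursing groups, with 2 Ct-Ct pups above 24 CPM and the other 4 below 3. The fold change was 4.47 (log2 2.16 ± 0.56 SE; edgeR adjusted p = 0.156). Leaving out any 1 library gave adjusted p values of 0.0754 to 0.295.

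Wee1, a kinase that restrains entry into mitosis and whose transcript is driven by the clock, was at 6.56 to 8.81 CPM in Ct-Ct (median 7.60) and at 6.20 to 18.9 in MetS-Ct (median 11.1). In Ct-MetS it was at 7.23 to 16.7 CPM (median 11.9), and in MetS-MetS at 10.2, 14.7, 24.2, 28.6 and 29.97. Values overlapped in both nursing groups. The difference was 0.58 and 0.84 on the log2 scale in the 2 nursing groups, and 0.71 ± 0.19 (SE; edgeR adjusted p = 0.156) over both, and Wee1 was called for the foster dam (0.79, adjusted p = 0.0204). Without MetS-Ct_70 and MetS-Ct_97, 7 of the 22 clock genes were higher and none lower at the unadjusted level. The palindrome CACGTG, the E-box through which the clock acts, was found in 3 of 8 promoter windows of the higher clock genes (those of Ciart and Tef) and in 7.15% of all windows. A window was listed for 7 of the 10 genes higher over all 23 libraries, which were chosen by their values. The match was in 2 of those 7 genes.

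**Figure D5:**
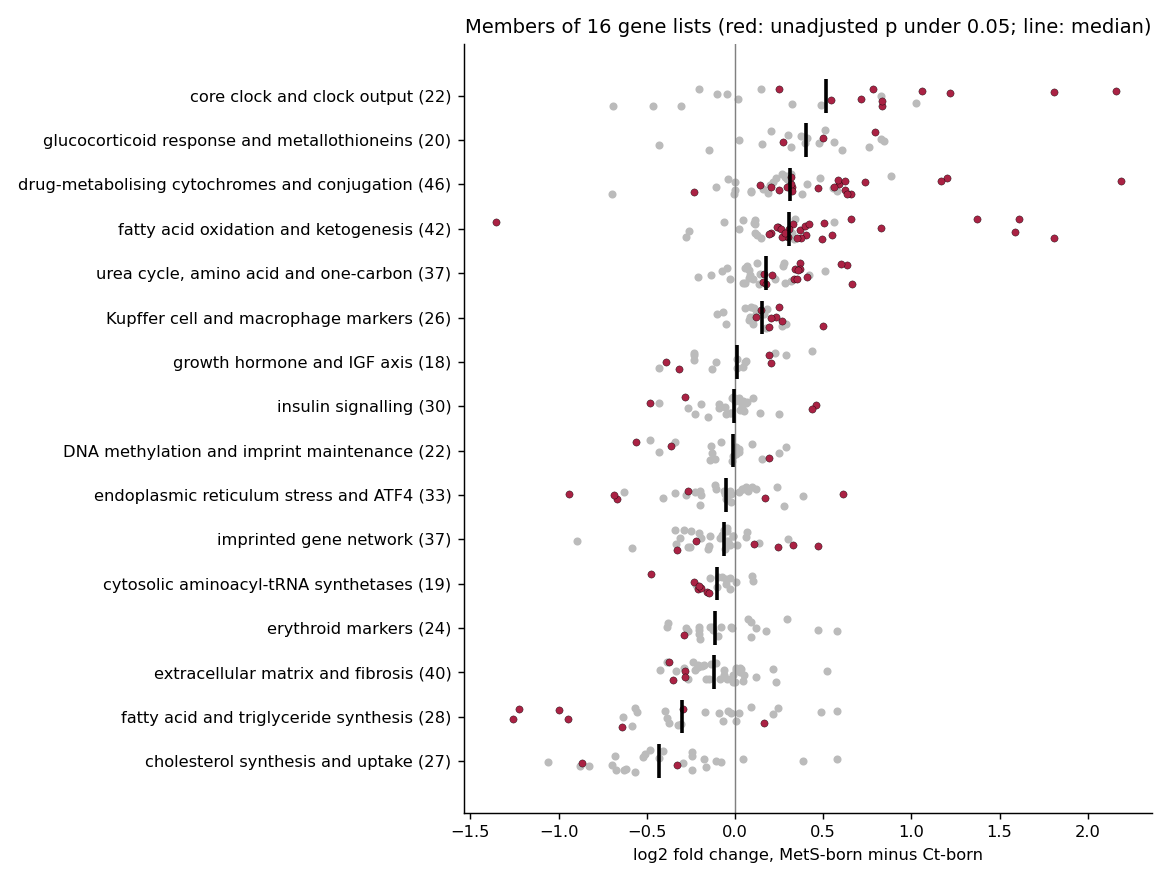
Log2 fold change of MetS-born over Ct-born pups (horizontal axis) for each tested member of 16 gene lists (vertical axis, with the number tested). Each point is a gene, red where its unadjusted p was under 0.05, and the black line is the list's median. Medians run from 0.52 for clock genes to -0.43 for cholesterol synthesis.

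Drug-metabolising enzymes were higher in MetS-born pups in 20 of 46 tested genes and lower in 1, Gstp1, at an unadjusted p under 0.05. Of all genes 8.61% were higher and 7.68% lower at that level. The median of the list was 0.31, with 0.12 in pups nursed by control dams and 0.49 in those nursed by MetS dams. An unadjusted edgeR interaction p under 0.05 was found for 8 of the 46, against 5.44% of all genes. Por, the reductase that supplies electrons to microsomal cytochromes P450, had a log2 fold change of 1.17 ± 0.29 (SE; edgeR adjusted p = 0.156). Nr1i3, the receptor CAR that induces Cyp2b10, was at 0.74 ± 0.20 (edgeR adjusted p = 0.156) with overlap in the control-nursed groups. Its target Cyp2b10 was scarce, with medians of 0.356 CPM in Ct-Ct and 0.712 in Ct-MetS, against 2.498 in MetS-Ct and 1.48 in MetS-MetS, and its log2 fold change was 2.19 ± 0.54 (edgeR adjusted p = 0.156).

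Por itself ran from 149.7 to 672 CPM in Ct-Ct (median 222) and from 189.7 to 1156 in MetS-Ct (median 709). In Ct-MetS it ran from 157.4 to 432 CPM (median 271), and the MetS-MetS pups were at 346, 647, 656, 780 and 844. Most MetS-born pups were above most Ct-born pups, with overlap in both nursing groups. DESeq2 called 6 and the weighted limma-voom test 7 of the 46 genes as higher, against 0.688% and 1.11% of all genes. Without MetS-MetS_110 these counts were 3 and 0.

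Genes of fatty acid oxidation and ketogenesis had the largest share of members on one side among the lists described. Of 42 tested, 26 were higher and 1 was lower at an unadjusted p under 0.05, against 8.61% and 7.68% of all genes, and the median was 0.30. The median was 0.28 in pups nursed by control dams and 0.31 in those nursed by MetS dams. The same genes had a median of 0.47 for the foster dam, with 18 called by edgeR, against 4.22% of all genes. None was called by edgeR for the birth dam. DESeq2 called 2 and the weighted test 1 as higher, against 0.688% and 1.11% of all genes. Without MetS-MetS_110 these counts were 2 and 0. Leaving out each library gave 20 to 28 members higher at the unadjusted level.

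The leading members were Aldh3a2, which oxidises fatty aldehydes (0.50 ± 0.14 SE; edgeR adjusted p = 0.156), Acot1, a cytosolic thioesterase (1.59 ± 0.44; 0.164), and Acads, the short-chain dehydrogenase of mitochondria (0.24 ± 0.068; 0.164). Aldh3a2 was at 112.9 to 218 CPM in Ct-Ct (median 138) and at 156 to 247 in MetS-Ct (median 214). It was at 150.9 to 349 CPM in Ct-MetS (median 236) and at 324, 349, 351, 364 and 434 in MetS-MetS, so the MetS-MetS median was the highest of the 4. The size of the Acot1 difference rested on MetS-MetS_39, at 89.6 CPM where the group median was 9.58, and was 0.95 on the log2 scale without it. The exception in the list was Fgf21, a hormone of the fasting liver, at -1.36 (edgeR adjusted p = 0.251). Ppara, the receptor that drives many of these genes, was at 0.15 (edgeR adjusted p = 0.404).

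No gene of lipid synthesis was called, and the spread was wide. In the list of fatty acid and triglyceride synthesis 6 of 28 were lower and 1 higher at an unadjusted p under 0.05, against 7.68% and 8.61% of all genes, with a median of -0.30. Without MetS-Ct_70 and MetS-Ct_97, 1 was lower and the median was -0.18, and without MetS-MetS_110, 3 were lower. Pnpla3, a lipase-like protein of lipid droplets, was at -1.26 ± 0.51 (SE), Elovl6, an elongase, at -1.23 ± 0.58, and Fasn, fatty acid synthase, at -0.997 ± 0.45 (edgeR adjusted p = 0.244, 0.302 and 0.284). The count of lower members was 2 without Ct-Ct_129 and 8 without MetS-Ct_149. Pups nursed by control dams had the larger difference in Fasn (-1.47 against -0.52), and the interaction did not pass (edgeR adjusted p = 0.913).

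Fasn ranged from 298 to 3850 CPM in Ct-Ct (median 866) and from 85.2 to 1132 in MetS-Ct (median 499.8). In Ct-MetS it ranged from 173 to 499 CPM (median 399), and in MetS-MetS from 90.7 to 383 (median 271). The range within every group was wider than the 1.996-fold difference between birth groups. Mlxipl, which encodes the glucose-responsive factor ChREBP, had a smaller and tighter difference of -0.29 ± 0.10 (edgeR adjusted p = 0.193).

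Cholesterol synthesis and uptake had the lowest median of the lists described, -0.43, with 2 of 27 members (Scap and Insig1) lower at an unadjusted p under 0.05, a share near the 7.68% of all genes. Without MetS-Ct_70 and MetS-Ct_97 none was lower and the median was -0.25, and without MetS-MetS_110, 1 was lower. Without MetS-Ct_149 this count was 12, and without Ct-Ct_129 it was 0. Fdps, an enzyme of isoprenoid synthesis, was at -1.06 and Sqle, squalene epoxidase, at -0.70, with edgeR adjusted p values of 0.345 and 0.558.

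Amino acid catabolism, the urea cycle and one-carbon metabolism had 14 of 37 members higher (8.61% of all genes were) and none lower at the unadjusted level, with a median of 0.17 for the birth dam and -0.15 for the foster dam. Sardh, an enzyme of sarcosine breakdown, was at 0.35 ± 0.094 (SE), Tdo2, which opens the tryptophan ring, at 0.60 ± 0.17, and Ahcy, which hydrolyses S-adenosylhomocysteine, at 0.66 ± 0.20 (edgeR adjusted p = 0.156, 0.164 and 0.169). Of the 37, the weighted test called these 3 higher and DESeq2 called Sardh and Tdo2, against 1.11% and 0.688% of all genes. The count at the unadjusted level ranged from 9, without Ct-MetS_169, to 21, without Ct-MetS_50, and was 8 without MetS-Ct_70 and MetS-Ct_97. Without MetS-MetS_110 DESeq2 called 2 of the list and the weighted test none.

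In a list of 20 genes of glucocorticoid action and metallothioneins, 18 had a positive difference, as did 7073 of all 14466 genes. At the unadjusted level 3 were higher and none lower, or 15% against 16.3% of all genes. They were Fkbp5, a co-chaperone of the steroid receptor (0.79 ± 0.24 SE), Hsd11b1, which regenerates active glucocorticoid (0.27 ± 0.097), and Serpina6, its carrier in blood (0.50 ± 0.21). Their edgeR adjusted p values were 0.169, 0.199 and 0.253. Nr3c1, the receptor itself, was at 0.02. Without Ct-MetS_50 the count of higher members was 8. It was 2 without MetS-MetS_109, without MetS-MetS_110, or without MetS-Ct_70 and MetS-Ct_97.

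The series concerns Zac1, the product of Plagl1, and the imprinted genes linked to it. Plagl1 ranged from 5.18 to 11.4 CPM in Ct-Ct and from 5.89 to 11.1 in MetS-Ct. It ranged from 7.00 to 13.1 CPM in Ct-MetS and from 5.79 to 11.01 in MetS-MetS, with overlap in both nursing groups. Its difference by birth dam was -0.08 ± 0.15 (SE; edgeR adjusted p = 0.806, 95% interval of the fold change on the log2 scale -0.39 to 0.23). Of 37 imprinted genes tested, 4 were higher and 2 lower at the unadjusted level, or 16.2% against 16.3% of all genes. The balance of directions changed with the libraries, to 1 higher and 6 lower without MetS-Ct_70 and MetS-Ct_97 and to 3 and 5 without MetS-MetS_110, and there were 6 lower without MetS-MetS_39.

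The imprinted genes with the smallest p were Ppp1r9a (-0.33 ± 0.089 SE), Sgce (-0.22 ± 0.076) and Osbpl5 (0.47 ± 0.17), with edgeR adjusted p values of 0.156, 0.193 and 0.201. Igf2, the fetal growth factor, was at -0.90 ± 0.44 (edgeR adjusted p = 0.315), and at -0.46 without Ct-MetS_169 and -0.50 without Ct-Ct_130. Cdkn1c, a cell cycle inhibitor, was at 0.14 and Igf2r at -0.01. H19, the non-coding RNA beside Igf2, went in opposite directions, at 0.74 in pups nursed by control dams and -1.90 in those nursed by MetS dams (edgeR interaction, adjusted p = 0.892). Its median was 156 CPM in Ct-Ct and 645 in Ct-MetS, against 408 in MetS-Ct and 287 in MetS-MetS, and 1 Ct-MetS pup reached 4551.

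Genes of DNA methylation, insulin signalling and the growth hormone axis had medians near 0, of -0.01, -0.01 and 0.01 on the log2 scale. Dnmt1, the maintenance methyltransferase, was at -0.36 ± 0.13 (SE) and Dnmt3b, which sets new methylation, at -0.56 ± 0.19 (edgeR adjusted p = 0.198 and 0.197). Genes of the extracellular matrix had 4 of 40 members lower and none higher, with a background of 7.68% lower. The count of lower members was 7 without MetS-MetS_110, 8 without Ct-Ct_33, and 1 without Ct-Ct_129 or without MetS-Ct_70 and MetS-Ct_97. Their median was 0.03 in pups nursed by control dams and -0.32 in those nursed by MetS dams. An unadjusted edgeR interaction p under 0.05 was found for 8 of the 40, against 5.44% of all genes. Interferon response genes and lymphocyte markers had no member at the unadjusted level, of 36 and 24 tested, where 16.3% of all genes were. Without MetS-Ct_85 the first list had 3 lower members, and without Ct-MetS_65 the second had 2.

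Among markers of Kupffer cells and macrophages, 8 of 26 were higher and none lower at the unadjusted level, against 8.61% and 7.68% of all genes, with a median of 0.15. The count was 3 without MetS-MetS_157, 5 without MetS-Ct_70 and MetS-Ct_97, and 11 without MetS-MetS_110. Their summed level was 1300 to 1595 CPM in Ct-Ct against 1616 to 1864 in MetS-Ct, and 1728 to 2163 in Ct-MetS against 1697 to 2200 in MetS-MetS, so birth groups were apart only in pups nursed by control dams. Vsig4, a complement receptor of Kupffer cells, was at 0.25 ± 0.096 (SE; edgeR adjusted p = 0.225). In bulk liver more cells of a type and more RNA per cell cannot be told apart, and the part of these cells in the other differences was not tested. The list of pancreas, gut, muscle and fat markers had a median of 0.62 with MetS-MetS_110 and -0.05 without it.

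The effect of the birth dam can be estimated separately in pups nursed by control dams (6 against 6) and in pups nursed by MetS dams (5 against 6), which share no library but do share scaling and the estimate of spread. In neither did edgeR call a gene. At an unadjusted p under 0.05 there were 854 genes (5.9%) in the first and 2255 (15.6%) in the second. DESeq2 called 12 (0.0903%) and 37 (0.257%), limma-voom none in either, and its weighted form 0 and 324 (2.24%). The difference between the estimates had no edgeR call (787 genes, 5.44%, at the unadjusted level; smallest adjusted p = 0.424), and DESeq2 called 4 (0.0278%).

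Between the 2 nursing groups 61.9% of all 14466 genes had the same sign of effect. Of the 854 genes at the unadjusted level in pups nursed by control dams, 72.2% had the same sign in the others. With the same sign, 155 (18.2%) were also at that level there, where 15.6% of all genes were, in either direction. Those 155 were 6.87% of the 2255, and 5.9% of all genes were at that level in pups nursed by control dams, in either direction. Across all genes Pearson's r between the 2 estimates was 0.11 and Spearman's rho 0.33, and without MetS-MetS_110 Pearson's r was 0.40. These are across genes, which are not independent replicates.

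No gene separated all 11 MetS-born from all 12 Ct-born libraries. Among pups nursed by control dams 37 genes (0.256%) had groups that did not overlap, and among those nursed by MetS dams 255 (1.76%). None was apart in both with the same direction. Clock genes had medians of 0.41 and 0.76 in the 2 nursing groups, and drug metabolism 0.12 and 0.49, whereas lipid synthesis had -0.40 and -0.18.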

How the data were processed

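Polyadenylated liver RNA was sequenced with a directional kit, per the labels. The submitters' processing notes name FastQC, STAR, HTSeq and DESeq2. The role of each tool, the genome build, the annotation and the use of strand were not given in the sources used here. Whole-number counts were deposited for 49585 Ensembl genes and were treated as raw, since their totals and size factors differ between libraries. Symbols matched 49326 genes.

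The 14466 genes whose mean count reached 10 entered edgeR 4.0.16 (R 4.3.3; quasi-likelihood, robust, TMM), with 1 mean per group. The birth dam effect is the mean of MetS-Ct and MetS-MetS minus that of Ct-Ct and Ct-MetS. P-values were Benjamini-Hochberg adjusted over all genes. The script was tested on simulated data. Alternatives used DESeq2 1.42.0, limma 3.58.1, other scalings, filters and models, and each library left out. Animal numbers pair no samples. Components and variance shares used log2(CPM + 0.5).

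The members and lists were chosen with earlier results of these data known. Named genes are every called gene, the 10 higher and 10 lower with the smallest p and a mean of at least 50 counts, 3 members of each described list and 14 fixed genes, of which Dlk1 was too low to test. Genes called by both DESeq2 and limma-voom added only Plekha1. Predicted genes and pseudogenes were left out, and 2 genes under this rule are not reported here. Other genes, among them Ciart, Dbp, Per2, Fgf21, Ppara, Phgdh and the synthetases beyond Lars and Cars, were chosen after their values were seen. Promoter windows were searched at their full listed length, on both strands, for TGATGNAA, CACGTG and GGGGCCCC, the palindrome reported for Zac1. The last was in 1.08% of all windows and in 1 of 23 windows of the 20 leading genes, that of Stat5b.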

Additional observations from a re-analysis of the deposited data

Results flagged for a closer look

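In each group of 5 or 6 pups the highest and lowest pup of the genes named by rule was compared with its neighbour by Dixon's rule, and 18 of 284 groups held a pup that stood apart. Chance flags about 1 in 20 groups. MetS-MetS_39 had 4 of the flags and Ct-Ct_10 had 3.

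Among the genes with the smallest p, Sfxn1 was at 67.3 CPM in MetS-Ct_149, against 101 in the next pup of its group, and Mcrip2 was at 56.4 in MetS-MetS_39, against 27.4. Mrpl15 was at 53.7 CPM in Ct-MetS_145, with the next pup at 45.1.

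Among imprinted genes, Osbpl5 was low in Ct-Ct_10 (3.57 CPM, next 4.64). Igf2 was high in Ct-Ct_130 (26.6 CPM, next 6.70) and in Ct-MetS_169 (53.02, next 11.9). H19 was high in MetS-MetS_157 (726 CPM, next 299) and Igf2r low in MetS-MetS_39 (48.2, next 74.2).

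In genes of insulin signalling and lipid synthesis, Ct-Ct_10 had Pik3r1 at 158 CPM (next 92.5) and Mlxipl at 191 (next 331). Elovl6 was at 11.4 CPM in Ct-MetS_50 (next 36.0) and at 5.64 in MetS-MetS_39 (next 27.3).

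In the list of glucocorticoid action and metallothioneins, Fkbp5 was at 249.9 CPM in Ct-MetS_65 (next 111). Serpina6 was at 126.9 CPM in MetS-Ct_53 (next 335) and at 182 in MetS-MetS_39 (next 475). The matrix gene Smoc2 was at 18.2 CPM in Ct-MetS_24 (next 27.5) and at 25.9 in MetS-Ct_53 (next 43.5), and the macrophage gene Lyz2 was at 40.1 in MetS-Ct_97 (next 36.4).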

How the results depend on the processing

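For the birth dam, the 1 call became 140 with DESeq2, 218 with limma-voom weighted for library quality, 63 with edgeR's likelihood ratio test, 2 with libraries thinned to the smallest total and 0 with the birth dam alone in the model. Added after seeing the data, DESeq2 without MetS-MetS_110 gave 83, the weighted test without it 1, and edgeR without MetS-Ct_70 and MetS-Ct_97 gave 0. Leaving out each library gave 0 to 22 calls. In pups nursed by control dams DESeq2 gave 12 and each library left out gave 0. In pups nursed by MetS dams DESeq2 gave 37, the weighted test 324, and leaving out each library 0 to 31, the highest without MetS-MetS_39. For the interaction DESeq2 gave 4, and each library left out 0. For the foster dam DESeq2 gave 1038, the weighted test 1465, no filter on low counts 367, and leaving out each library 350, without MetS-MetS_154, to 930, without Ct-MetS_50. The share of variance by birth dam was 9.59% over the 1000 most variable genes and 7.7% to 10.6% with each library left out.

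Of the fits of named genes, 2776 kept their direction and side of the threshold, 122 passed it newly, 10 lost it and 8 reversed. The reversals were in Igf2r, from -0.01 to 0.00088 with the weighted test, 0.01109 without MetS-Ct_70 and MetS-Ct_97, and between -0.04835 and 0.05129 with each library left out, above 0 without Ct-Ct_10, Ct-Ct_130, Ct-MetS_169, Ct-MetS_24, MetS-Ct_97 or MetS-MetS_39. Plekha1 was lost with the birth dam alone (adjusted p = 0.176) and without MetS-Ct_70 and MetS-Ct_97 (0.152). The cause of these differences was not tested. The planned older form of edgeR is the default of this version and gave identical results, and a newer form was added. No paired analysis was possible because the groups share no animal numbers.

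The sources used here do not give the litter, diet length or batch of single animals. With 5 or 6 pups a group, wide spread within groups, as in clock and lipid genes, limited the precision, with a median standard error of 0.10 on the log2 scale.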

Other observations

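The 3 globin genes described here had opposite differences by birth dam in the 2 nursing groups. Hbb-bt, a beta globin, ranged from 29.8 to 94.4 CPM in Ct-Ct (median 46.0) and from 13.5 to 28.5 in MetS-Ct (median 21.5). It ranged from 23.1 to 54.6 CPM in Ct-MetS (median 41.7) and from 44.0 to 77.5 in MetS-MetS (median 57.9). The birth groups were apart in pups nursed by control dams, with MetS-Ct lower, and overlapped in those nursed by MetS dams, with MetS-MetS mostly higher. The log2 fold changes were -1.27 and 0.51, and their difference was 1.78 ± 0.37 (SE), with an adjusted p of 0.424 in edgeR's quasi-likelihood test, below which no gene lay. Hba-a1 and Hbb-bs had -1.09 and -1.02 in the first nursing group and 0.69 and 0.62 in the second. Other red cell genes did not all do so: Rhd was at 0.68 and 0.48, and Bpgm at -0.53 and -0.05. Rhd was scarce, with a mean count of 10.4, just above the minimum for testing, and at most 1.12 CPM. Its SEs in the 2 nursing groups were 0.46 and 0.38. Of 24 erythroid markers tested, 8 had an unadjusted interaction p under 0.05, against 5.44% of all genes, and their median by birth dam was -0.46 and 0.34.

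Genes of the respiratory chain in the nucleus had 10 of 39 members higher and 1 lower at an unadjusted p under 0.05. Of all genes 8.61% were higher and 7.68% lower at that level, and the median of the list was only 0.08. Without Ct-MetS_169 the count of higher members was 5 and without Ct-Ct_10 it was 17. Genes of the cell cycle had a positive difference in 3 of 38 members, against 7073 of all 14466 genes. Their median was -0.24 for the birth dam and 0.58 for the foster dam. For the birth dam 1 member was at the unadjusted level, lower, where 7.68% of all genes were lower. Without MetS-Ct_149 the count of lower members was 7.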
